A study of Mus musculus with 6 samples.

Results

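The 7 genes described here encode subunits of the GABA-A receptor: Gabra2, Gabra3 and Gabra5 (alpha), Gabrb1 and Gabrb2 (beta), and Gabrg1 and Gabrg3 (gamma). They were taken by symbol from the 18204 genes of a Drop-seq table of mouse hypothalamus, and they were chosen by the level of Gabra2, which was lower in the knockout libraries, with family members set beside it. Drop-seq captures single cells in droplets and counts the 3' ends of their transcripts as unique molecular identifiers (UMIs). There were 6 libraries from C57BL/6J mice aged 8 weeks, 3 labelled WT and 3 labelled KO. KO mice lack IDOL, the product of Mylip, a ubiquitin ligase that sends lipoprotein receptors of the LDL receptor family to breakdown. The series asks what changes in hypothalamic cells without it. The labels do not give the deleted part of Mylip, the sex of the mice, or whether each library is a separate animal, so p-values measure the spread between libraries only. The libraries were made on 2 days with both groups on each, and the day of each library is not given. Values of single libraries are listed as replicate 1, 2 and 3 of WT, then of KO, named WT1 to WT3 and KO1 to KO3.

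GABA-A receptors are pentameric chloride channels that open when GABA, the main inhibitory transmitter of the brain, binds between an alpha and a beta subunit. Most receptors join alpha, beta and gamma subunits. The alpha subunit shapes the affinity for GABA, the place of the receptor and its response to drugs, the beta subunit is needed for assembly and anchoring, and the gamma subunit helps to hold receptors at synapses and forms the benzodiazepine site with alpha. In the hypothalamus, neurons that regulate feeding, body clock, reproduction and water balance release or receive GABA.

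The table held 13994 cell barcodes and 17160905 UMIs, with 1670993 to 4068886 UMIs per library. After filtering 9333 cells were kept, 1036 to 1946 per library, with a median of 804 to 1017 UMIs per cell. Clusters carrying neuronal markers held 3135 of these cells, and the tissue's own peptide genes, among them Pomc, Agrp, Avp and Oxt, led several neuron clusters. Neurons made up 26.8% to 43.9% of cells in WT libraries and 23.8% to 36.8% in KO libraries. Mylip was counted 68, 27 and 43 times in WT and 2, 0 and 0 times in KO. No library went against its label, 3 of 13991 different barcodes occurred in more than 1 library, and none of those were among the kept cells. The 7 subunits together gave 6707 UMIs in 2789 kept cells, from 165 UMIs for Gabrb2 to 1306 for Gabra3.

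In the mouse genome 3 of the members share a cluster of receptor genes on chromosome 5 (GRCm38, GENCODE M21). Gabrg1 lies at chr5:70751047-70842617 on the minus strand and spans 91.6 kb. Gabra2 follows after 115 kb at chr5:70957597-71095849, also on the minus strand, and spans 138 kb. Gabrb1 lies at chr5:71658113-72149037 on the plus strand, spans 491 kb, and overlaps the start of Gabra4, which points the other way, by 196 bases. Gabrg3 (chr7:56716465-57387188, minus) and Gabra5 (chr7:57407672-57510059, minus) are neighbours 20.5 kb apart on chromosome 7. Gabrb2 lies at chr11:42419757-42629028 on the plus strand and Gabra3 at chrX:72432681-72656848 on the minus strand. Gabra3, Gabra5, Gabrb1 and Gabrg3 overlap other annotated genes. Whether the counting used strand is not given in the sources used here, so reads of overlapping genes cannot be told apart.

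The starts of the 3 chromosome 5 genes are shown because these neighbours differed in both patterns described below: Gabrb1 and Gabrg1 were high in astrocytes and Gabra2 was not, and Gabra2 was lower in KO libraries while the other two overlapped between genotypes. Each line gives 250 bases before and 50 bases after the RefSeq start (GRCm38.p6), 5′ to 3′ on the gene's strand, with every CG dinucleotide in capitals. The windows are chr5:71095800-71096099 for Gabra2, chr5:70842568-70842867 for Gabrg1 and chr5:71657671-71657970 for Gabrb1. The Gabrb1 window ends before the GENCODE start of that gene at chr5:71658113, so the RefSeq start read here is a different one.
Gabra2: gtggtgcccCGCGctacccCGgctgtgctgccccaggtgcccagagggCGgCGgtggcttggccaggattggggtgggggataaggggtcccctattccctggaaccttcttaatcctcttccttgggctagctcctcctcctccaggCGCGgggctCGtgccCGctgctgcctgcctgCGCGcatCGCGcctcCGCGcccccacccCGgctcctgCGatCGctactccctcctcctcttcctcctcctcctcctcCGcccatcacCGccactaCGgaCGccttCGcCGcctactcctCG
Gabrg1: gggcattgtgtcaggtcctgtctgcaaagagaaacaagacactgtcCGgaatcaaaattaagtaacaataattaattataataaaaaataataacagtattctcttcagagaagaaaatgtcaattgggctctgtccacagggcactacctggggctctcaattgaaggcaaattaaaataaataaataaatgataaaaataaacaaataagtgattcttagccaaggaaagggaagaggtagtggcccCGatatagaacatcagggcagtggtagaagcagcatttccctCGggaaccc
Gabrb1: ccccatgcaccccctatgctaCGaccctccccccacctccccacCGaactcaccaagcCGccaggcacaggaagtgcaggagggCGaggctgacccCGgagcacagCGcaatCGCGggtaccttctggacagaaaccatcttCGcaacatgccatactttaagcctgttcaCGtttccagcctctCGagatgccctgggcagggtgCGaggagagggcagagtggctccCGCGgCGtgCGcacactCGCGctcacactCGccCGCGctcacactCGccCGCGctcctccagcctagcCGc
The Gabra2 window held 25 CG dinucleotides at 70.0% G or C, and the Gabrb1 window held 25 at 66.0%. As many CG dinucleotides were found in 18.4% of the 32851 mouse promoter windows of the same length, whose median was 7. The Gabrg1 window held 3 CG dinucleotides at 38.3% G or C, a count reached by 76.7% of windows. Among the other members, all of which matched the RefSeq table, Gabra5 and Gabrg3 held 13 each, Gabrb2 held 11 and Gabra3 held 0. The letters TATAAA, searched on both strands, occurred in the windows of Gabra3 and Gabrb2, and in 13.6% of all windows. Gabrb1 and Gabra3 each had 2 entries in the RefSeq table and Gabrb2 had 3, and a single window of each gene was read. CG-rich and CG-poor starts thus both occurred among the windows read, and the 2 genes that were high in astrocytes had one of each.

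The first question was how the subunits are spread over neurons and glia. Levels are given as CPM, a gene's UMI count per 1e+06 UMIs of a cell class, as mean ± SD over the 6 libraries, and each gene is compared only with itself across classes. Neurons held 94.1% of the UMIs of Gabra2, 93.0% of Gabra3, 95.1% of Gabra5 and 91.5% of Gabrb2. The share was 75.9% for Gabrg3, 73.0% for Gabrb1 and 68.0% for Gabrg1. Of the 7 members, 4 were highest in neurons (Gabra2, Gabra3, Gabra5 and Gabrg3), Gabrb1 and Gabrg1 were highest in astrocytes, and Gabrb2 in neurons and in oligodendrocyte precursors lay within the SD. These levels describe the marker-named classes and were not tested.

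Among the alpha subunits, Gabra2 stood at 172 ± 56.7 CPM in neurons and at 24.7 ± 15.2 in astrocytes, the next class. Astrocytes, oligodendrocyte precursors, microglia and tanycytes (glia at the floor and walls of the ventricle) followed each other within their SD, from 24.7 to 15.3 CPM. Oligodendrocytes, with 3.80 ± 3.47 CPM, and endothelial cells, with 1.31 ± 3.22, lay below them. Gabra3 stood at 174 ± 30.6 CPM in neurons and at 116 ± 20.7 in oligodendrocyte precursors, the dividing cells that give rise to myelinating oligodendrocytes. Those precursors gave 61 UMIs of Gabra3 and between 92.3 and 152 CPM in every library. Every other class with at least 20 cells in each library stayed at or below 5.82 CPM, mature oligodendrocytes at 3.78 ± 3.68. Newly formed oligodendrocytes, with 66 cells and 9 in the smallest library, were below that size. They gave 4 UMIs of Gabra3, 49.4 ± 46.8 CPM, with 0 in KO1 and KO3. Gabra5, a subunit known from receptors outside synapses, stood at 136 ± 11.8 CPM in neurons. The next level was 20.8 ± 17.7 CPM in ependymal cells, the ciliated lining of the ventricle, from 29 UMIs and with 0 in 2 libraries. Tanycytes had 0 UMIs of Gabra5, which allows up to 4.73 CPM.

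Among the beta subunits, Gabrb1 was higher in astrocytes than in neurons, 186 ± 26.2 against 124 ± 12.3 CPM. The lowest astrocyte library stood at 161 CPM and the highest neuron library at 138, so the classes did not overlap. Oligodendrocyte precursors followed at 28.4 ± 24.3 CPM and every other class with at least 20 cells in each library lay at or below 13.7. Gabrb2 was sparse: 21.4 ± 6.17 CPM in neurons and 25.2 ± 26.1 in oligodendrocyte precursors, the latter from 12 UMIs in 11 cells. It was not counted in astrocytes, microglia, endothelial cells or tanycytes, and in astrocytes a count of 0 allows up to 2.19 CPM.

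Among the gamma subunits, Gabrg1 also had its highest level in astrocytes, 206 ± 35.6 CPM against 98.5 ± 13.6 in neurons and 63.8 ± 27.3 in oligodendrocyte precursors. The lowest astrocyte library (157 CPM) was above the highest neuron library (116 CPM). Gabrg3 stood at 82.9 ± 15.4 CPM in neurons, 50.1 ± 15.1 in oligodendrocyte precursors and 60.1 ± 20.2 in ependymal cells, where each library gave between 48.5 and 100.2 CPM from 55 UMIs in all. Ependymal cells were few, with 14 in the smallest library. Tanycytes stood at 40.4 ± 36.3 CPM of Gabrg3, but in KO2 a single cell gave 9 of the 13 UMIs. In astrocytes Gabrg3 was at 12.4 ± 8.82 CPM, so the other gamma member did not share the astrocyte level of Gabrg1.

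**Figure D1:**
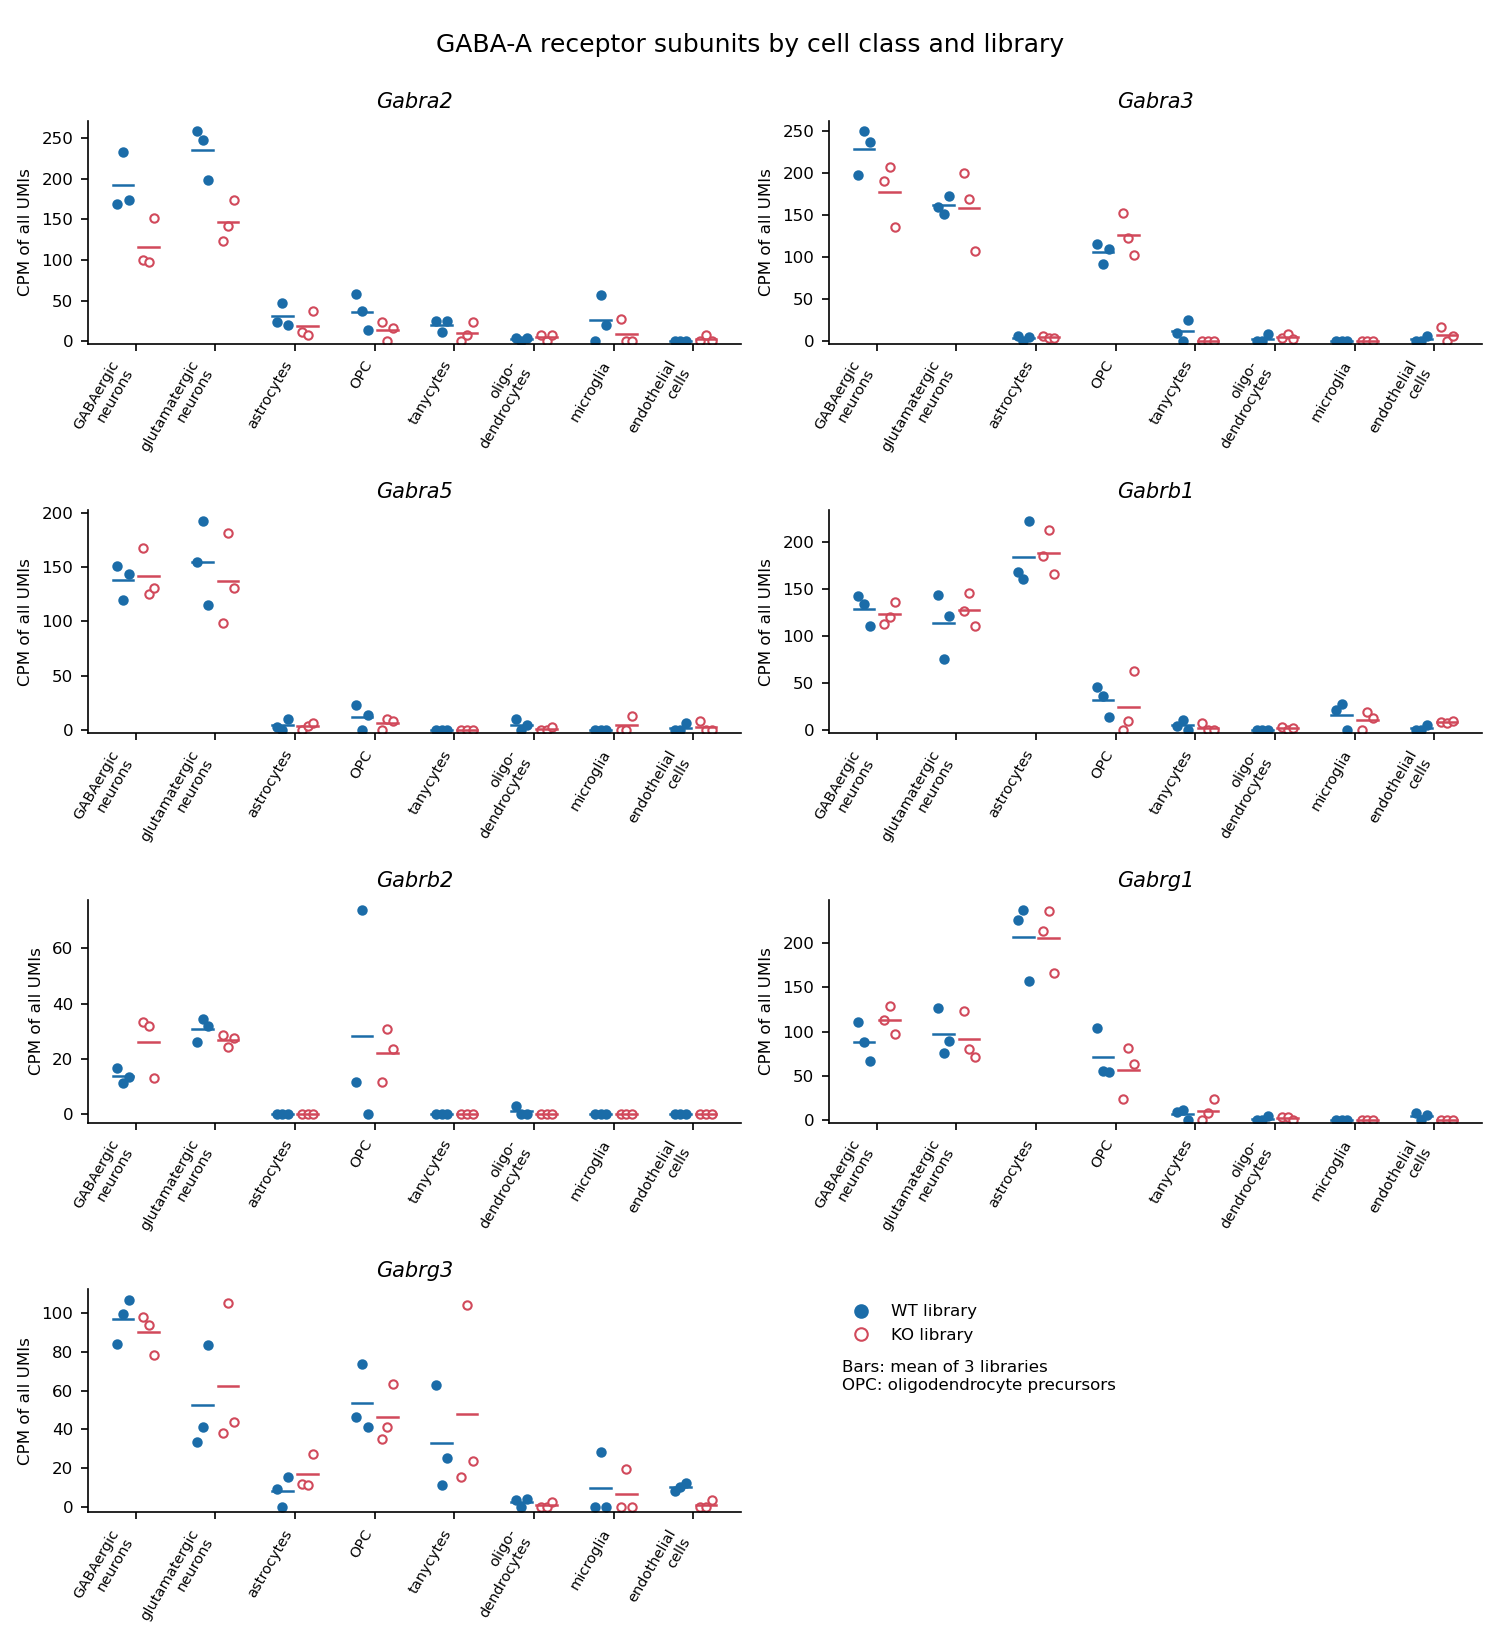
Level of each subunit (CPM of all UMIs of the class, linear axis) in each cell class. Points are the 6 libraries, filled for WT and open for KO, and bars are means. Gabrb1 and Gabrg1 are highest in astrocytes, at means of 186 and 206 CPM, and Gabra3 has a second level of 116 CPM in oligodendrocyte precursors.

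Shares of cells depend on depth and were read as measured and at equal depth. A UMI of Gabrg1 was seen in 15.4% of 1639 astrocytes and one of Gabrb1 in 13.5%, at a median of 626 UMIs per cell. In 1260 oligodendrocytes, which were deeper at a median of 1075.5 UMIs, the shares were 0.238% and 0.159%. Thinned to 500 UMIs per cell, which left out 360 astrocytes and 46 oligodendrocytes, astrocytes kept 10.3% for Gabrg1 and 8.44% for Gabrb1, and oligodendrocytes 0% for both. In neurons, at a median of 1430 UMIs, the measured shares were above those of astrocytes, 17.0% for Gabrg1 and 21.2% for Gabrb1. Thinned to 500 UMIs, with 362 neurons left out, they were below, at 4.83% and 6.02%. Gabra3 was seen in 9.37% of 587 oligodendrocyte precursors (median 799 UMIs) and in 0.476% of oligodendrocytes. Neuron markers were present in the precursor sums at 1804 to 3322 CPM per library, against 22859 to 27482 CPM in neurons. In the tanycyte sums they were at 2606 to 3605 CPM. Their part in the levels of precursors and tanycytes was not tested.

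The next question was whether inhibitory and excitatory neurons differ in subunit levels. Neurons with at least 2 UMIs of Gad1, Gad2 and Slc32a1 and none of Slc17a6 were called GABAergic (1098 cells), and those with at least 1 UMI of Slc17a6 and none of the other 3 glutamatergic (528 cells). Median depths were 2279 and 2314 UMIs, and 1509 neurons met neither rule. Sums per library were compared with library as a block (edgeR quasi-likelihood test, Benjamini-Hochberg adjustment over 7505 genes). Of the 7 members, 2 passed an adjusted p of 0.05, in opposite directions, where 7.12% of all genes tested did.

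Gabrg3 was higher in GABAergic neurons. Its CPM in WT was 83.8, 99.5 and 107 in GABAergic and 33.5, 41.3 and 83.4 in glutamatergic neurons. In KO it was 98.2, 93.7 and 78.5 against 38.1, 105 and 43.6. The difference went the same way in 5 of 6 libraries, KO2 being the exception, and came to 0.75 ± 0.20 on the log2 scale (± SE, edgeR adjusted p = 0.0141). By the same test 3.01% of all genes were called higher in GABAergic neurons and 4.10% lower.

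Gabra2 was lower in GABAergic neurons in 6 of 6 libraries, 154 ± 51.1 against 191 ± 55.1 CPM. The log2 difference was -0.39 ± 0.12 (edgeR adjusted p = 0.0322). Both calls were lost with DESeq2 (adjusted p = 0.192 for Gabrg3 and 0.473 for Gabra2) and without WT1 (edgeR adjusted p = 0.158 and 0.313). The Gabrg3 call was also lost without KO1 (0.0949), and the Gabra2 call without KO2 (0.0742) and with no filter on low counts (0.140).

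The other 5 members did not pass the test. Gabra3 had 203 ± 40.2 CPM in GABAergic and 160 ± 30.7 in glutamatergic neurons, a log2 difference of 0.27 ± 0.12 that was higher in 5 of 6 libraries (edgeR adjusted p = 0.208). Gabrb2 differed by -0.45 ± 0.31 (edgeR adjusted p = 0.505), from 19.9 ± 9.91 against 28.9 ± 3.79 CPM. Gabra5, Gabrb1 and Gabrg1 differed by -0.05, -0.01 and 0.03 on the log2 scale.

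**Figure D2:**
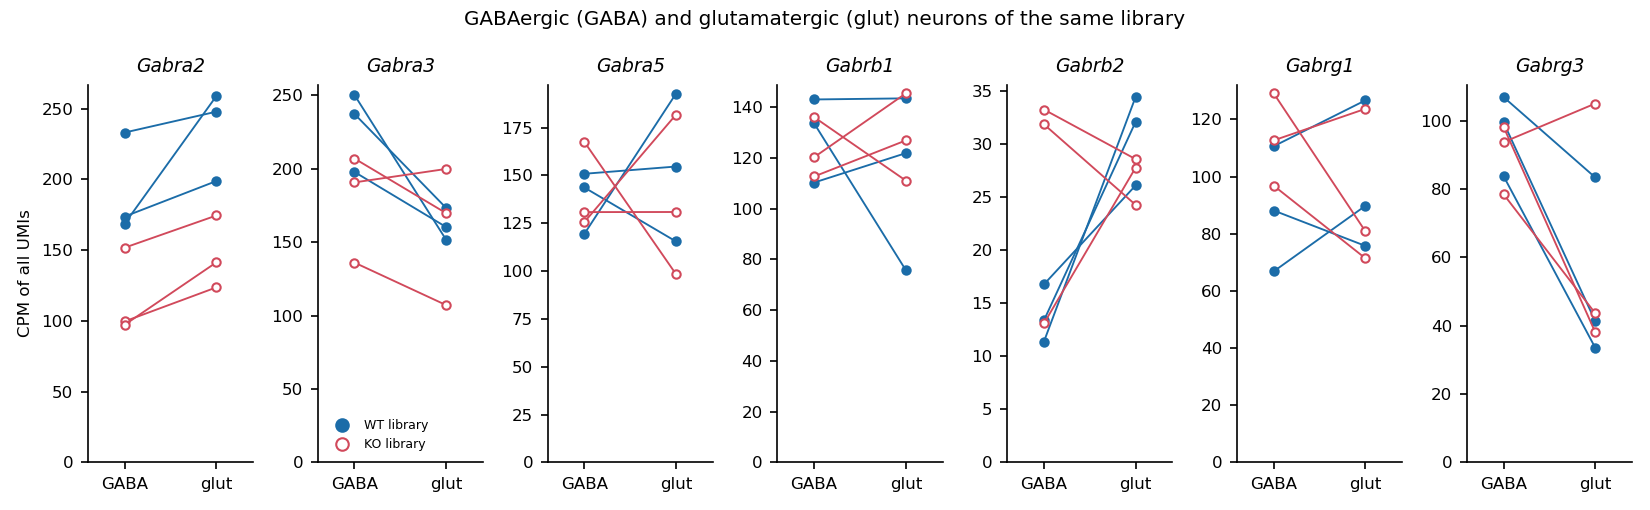
CPM of each subunit (linear axis from 0, scale per panel) in GABAergic and glutamatergic neurons. Each line joins the 2 sums of 1 library, filled for WT and open for KO. Gabra2 lines rise towards glutamatergic neurons in 6 of 6 libraries, and Gabrg3 lines fall in 5 of 6.

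Genes around the receptor were read from lists chosen with these data known. Of 5 other GABA-A subunits tested, 3 were lower in GABAergic neurons and 0 higher by the same test, with a median log2 difference of -0.75 against 0.01 over all genes. Among them Gabra4, an alpha subunit, stood at 39.7 ± 8.18 against 66.4 ± 13.8 CPM (-0.75 ± 0.20, edgeR adjusted p = 0.0178, lower in 5 of 6 libraries). None of 16 genes of receptor scaffold, assembly and trafficking passed in either direction, with a median of -0.03. Of 4 genes for GABA-B receptors and chloride transporters, 2 were lower in GABAergic neurons. These were Gabbr2, a subunit of the metabotropic GABA-B receptor (-0.90 ± 0.16), and Slc12a5, the chloride exporter KCC2 that sets the chloride gradient these channels use (-0.51 ± 0.11). Of the 5 tested genes of GABA synthesis, loading, uptake and breakdown all 5 were higher, but 3 of them defined the groups. Among the others was Abat, the GABA transaminase that breaks GABA down (0.52 ± 0.12, edgeR adjusted p = 0.00304).

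Neurons fell into clusters of which 12 had at least 50 cells. All GABA-A subunit genes were left out of the clustering, and the clusters are called by their leading genes. Cluster values are CPM of the summed cells with exact 95% Poisson intervals, which cover counting error only, and are a description without a test. The members did not go up and down together across these clusters.

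The 436 neurons led by Vip, Avp, Rgs16 and Nms, genes of the body clock nucleus, stood apart. They had the lowest Gabra2 of the 12 clusters, 40.1 CPM (25.9 to 59.1), against 167 over all neurons. They also had the lowest Gabra5, 14.4 CPM (6.59 to 27.4) against 140. Their Gabrg3 was the highest of the 12, 170 CPM (139 to 205) against 78.4, and lay between 130 and 212 CPM in every library. Gabra3 in them was at 112 CPM against 174 over all neurons.

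The 120 glutamatergic neurons led by Foxb1, a marker of the mammillary region, were at the other end for Gabrg3. It gave 1 UMI there, 3.97 CPM (0.100 to 22.1), and Gabrg1 gave 6 UMIs, 23.8 CPM (8.73 to 51.8) against 103 over all neurons. Gabra2 was at 266 CPM (206 to 337), Gabra5 at 222 (168 to 288) and Gabrb2 at 51.5 (27.4 to 88.1), its highest value.

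Neurons led by Npy and Agrp, which drive feeding, had Gabra2 at 81.9 CPM (56.3 to 115), Gabrg3 at 29.8 (15.4 to 52.0) and Gabra5 at 206 (164 to 255) in 142 cells. Gabrb2 was not counted in them, which allows up to 7.44 CPM. Neurons led by Pomc, Gal and Ghrh, with 560 cells, had Gabra3 at 217 CPM (196 to 241) and Gabra2 at 158 (139 to 178). In the 95 neurons led by Avp and Oxt, hormones released from the posterior pituitary, Gabra5 was at 26.2 CPM (13.9 to 44.8) and Gabrg3 at 8.06 (2.20 to 20.6), while Gabra2 was at 163 (130 to 203). The 72 neurons led by Tac2 and Pdyn had Gabrg3 at 9.10 CPM (1.10 to 32.9) and Gabrg1 at 136 (92.1 to 195). Gabra3 was highest in the neurons led by Gad2, Nts and Dlx1 and in those led by Sst, at 247 CPM in both, and Gabra5 in those led by Pmch, Adcyap1 and Tac1, at 231 CPM. The highest Gabra2 of the 12, 267 CPM (219 to 324), was in 449 neurons of mixed kind led by haemoglobin genes, with a low median of 726 UMIs per cell. Their Gabrb1 was at 208 CPM (165 to 259) in the summed cells but at 176 as a mean over libraries, below the Foxb1 cluster at 190. Gabrg3 thus ranged from 3.97 to 170 CPM and Gabra5 from 14.4 to 231, while Gabrb1 ranged from 68.9 to 208.

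**Figure D3:**
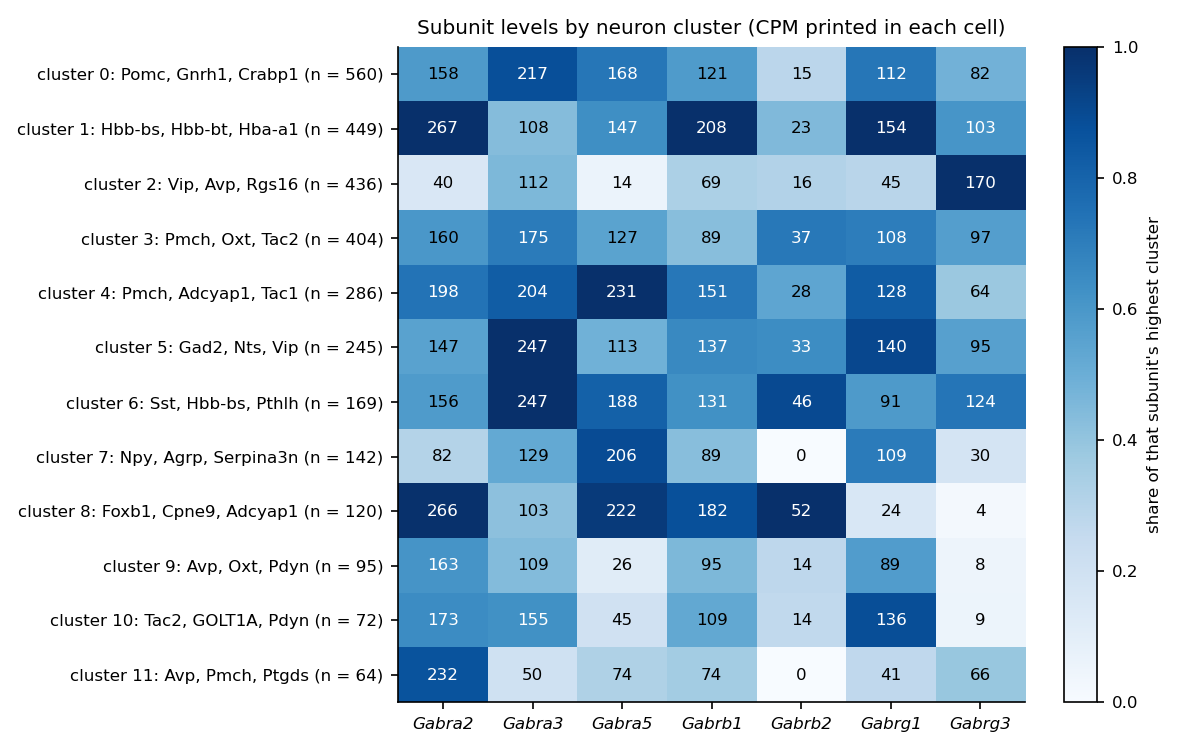
CPM of each subunit, printed in each cell, in the 12 neuron clusters of at least 50 cells, named by leading genes with the number of cells. Colour is the share of that subunit's highest cluster. The cluster led by Vip, Avp and Rgs16 has 40 CPM of Gabra2 and 170 of Gabrg3, and the cluster led by Foxb1 has 266 and 4.

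The remaining comparison was KO against WT. Gabra2 was chosen for this contrast, so the values are a description and no test of them is given. Over all kept cells Gabra2 gave 441, 190 and 142 UMIs in WT and 138, 149 and 174 in KO. As CPM these were 121, 125 and 77.4 in WT and 56.3, 54.2 and 64.0 in KO. Every KO library was below every WT library, as for 3.46% of the 13059 genes tested. The edgeR log2 fold change was -0.88 ± 0.21 (KO over WT ± SE). In these sums a smaller share of neurons and less Gabra2 per neuron cannot be told apart.

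Within neurons Gabra2 gave 419, 178 and 133 UMIs in WT and 131, 144 and 156 in KO. The CPM was 199, 254 and 194 in WT (216 ± 33.3, n = 3) and 101, 118 and 163 in KO (127 ± 32.1, n = 3). The groups did not overlap, KO3 being the KO library nearest to WT, and 4.84% of the 9873 genes tested in neurons were likewise lower in every KO library. The log2 fold change was -0.77 ± 0.19, where the median over all genes was -0.00. It ran from -0.96 without KO3 to -0.63 without WT2.

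The lower level was seen in both kinds of neuron. In GABAergic neurons Gabra2 was at 169, 233 and 174 CPM in WT and 99.7, 97.3 and 152 in KO, a log2 fold change of -0.73 ± 0.22. In glutamatergic neurons it was at 259, 248 and 199 CPM in WT and 124, 141 and 174 in KO, a log2 fold change of -0.71 ± 0.22. Neither pair of groups overlapped. The shares of genes lower in every KO library were 5.13% and 4.68%.

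**Figure D4:**
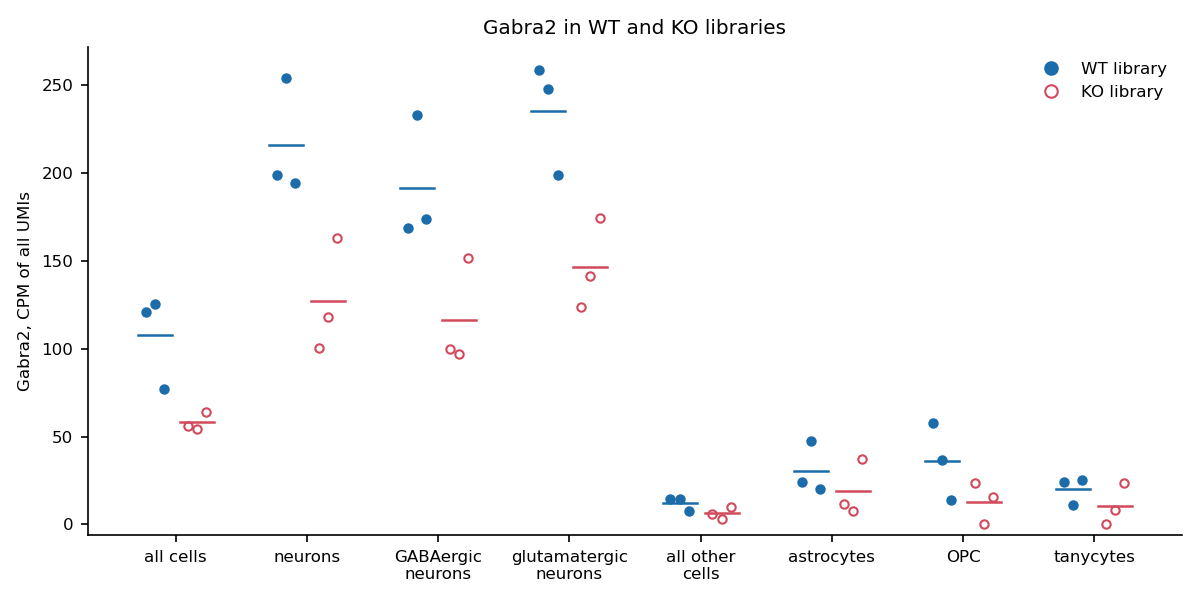
Gabra2 (CPM of all UMIs of the group of cells, linear axis) in each library, filled points for WT and open for KO, with lines at the group means. The 3 KO libraries lie below the 3 WT libraries in all cells, neurons, GABAergic neurons and glutamatergic neurons, and the groups overlap in all other cells, astrocytes, oligodendrocyte precursors (OPC) and tanycytes.

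Neuron clusters were not equally shared among libraries, so Gabra2 was also read within them. Of 8 clusters with at least 10 cells in every library, the mean KO level was below the mean WT level in 7. In 2 the groups did not overlap. Over all genes with at least 20 UMIs in a cluster, KO was lower without overlap in 5.02% of 45057 pairs of gene and cluster, and in 3.6% to 6.02% of genes within single clusters. One of the 2 was the cluster led by Vip, Avp and Rgs16, with 36.4, 66.7 and 117.9 CPM in WT and 22.2, 32.6 and 25.8 in KO, from 25 UMIs in all. The other was a mixed cluster led by Pmch and Oxt with a low median of 522 UMIs per cell, with 149, 179 and 405 CPM against 54.6, 100.7 and 139. In the Npy and Agrp cluster the levels were 77.9 ± 14.3 in WT and 81.5 ± 13.2 in KO, from 33 UMIs. In the Pomc, Gal and Ghrh cluster they were 204 ± 84.2 and 112 ± 51.8. With every library weighted to one mix of the 8 clusters, Gabra2 was at 180, 257 and 150 CPM in WT and 107, 105 and 154 in KO. The ratio of the group means was then 0.624, and WT3 was below KO3, so the groups overlapped.

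The share of neurons with a Gabra2 UMI was 29.6%, 31.7% and 28.2% in WT and 18.7%, 16% and 23.1% in KO, at medians of 1070 to 1759 UMIs per neuron. The background share was 0.556% in oligodendrocytes. Thinned to 500 UMIs per cell, with 362 of 3135 neurons left out, the shares were 7.43%, 11.4% and 10.9% in WT and 6.21%, 5.91% and 9.0% in KO, and the groups overlapped through WT1 and KO3. No neuron gave more than 8 Gabra2 UMIs, and none gave more than 6.02% of a library's neuronal Gabra2 UMIs.

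Outside neurons the counts were too few to describe a common difference. All other cells together gave 22, 12 and 9 Gabra2 UMIs in WT and 7, 5 and 18 in KO, or 14.3, 14.7 and 7.82 against 6.08, 3.27 and 10.2 CPM, with overlap. Their log2 fold change was -0.87 ± 0.48. Astrocytes gave 8, 5 and 4 UMIs in WT and 2, 2 and 11 in KO, again with overlap. Oligodendrocytes gave 7 UMIs over the 6 libraries, microglia 4 and endothelial cells 1. The KO difference of Gabra2 in neurons minus that in all other cells was 0.16 ± 0.37 on the log2 scale (edgeR quasi-likelihood interaction, library as a block, adjusted p = 1). Its 95% interval ran from -0.56 to 0.88, so it held differences of either sign. It changed sign without WT1 (-0.11) and without KO2 (-0.09). All 7 members had an adjusted p of 1 in this edgeR test, which called 0.00782% of 12783 genes.

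The other members did not separate the genotypes in neurons. Gabra3 was at 177, 197 and 190 CPM in WT and 193, 175 and 115 in KO (log2 fold change -0.21 ± 0.19), with KO3 the lowest library. Gabra5 (-0.08 ± 0.17) and Gabrb1 (-0.03 ± 0.17) had KO means of 133 ± 13.5 and 123 ± 15.9 CPM against WT means of 140 ± 11.1 and 125 ± 10.9. Gabrg1 was at 95.0 ± 18.6 CPM in WT and 102 ± 8.90 in KO (0.08 ± 0.18), and Gabrg3 at 84.0 ± 21 and 81.8 ± 12.3 (0.02 ± 0.21). Gabrb2 had the largest value after Gabra2, in the other direction, 0.55 ± 0.30, from 36, 13 and 12 UMIs in WT and 38, 36 and 16 in KO. Its CPM was 17.1, 18.6 and 17.5 in WT and 29.2, 29.5 and 16.7 in KO, so KO1 and KO2 were high and KO3 was below all WT libraries. In all 6 of these genes the groups overlapped. Over all 9873 genes tested in neurons, 9.79% did not overlap, whether lower or higher in KO. With that share, nothing is read from the overlap of 6 genes. In astrocytes, where Gabrb1 and Gabrg1 were highest, their log2 fold changes were 0.02 ± 0.25 and -0.00 ± 0.25. No other member passed the filter on low counts there.

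Whether Gabra2 differs from the other members in its KO difference was not tested as such. In neurons edgeR called 0.0304% of all genes at an adjusted p of 0.05, and 431 of 9873 genes had an unadjusted p below 0.05. The count of members called was 0, and since the members were chosen on this contrast nothing is read from it. Among the Gabra2, Gabra3 and Gabra5 UMIs of neurons, Gabra2 made up 37.7%, 43.7% and 37.2% in WT and 22.9%, 27.7% and 41.1% in KO, with overlap through KO3.

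**Figure D5:**
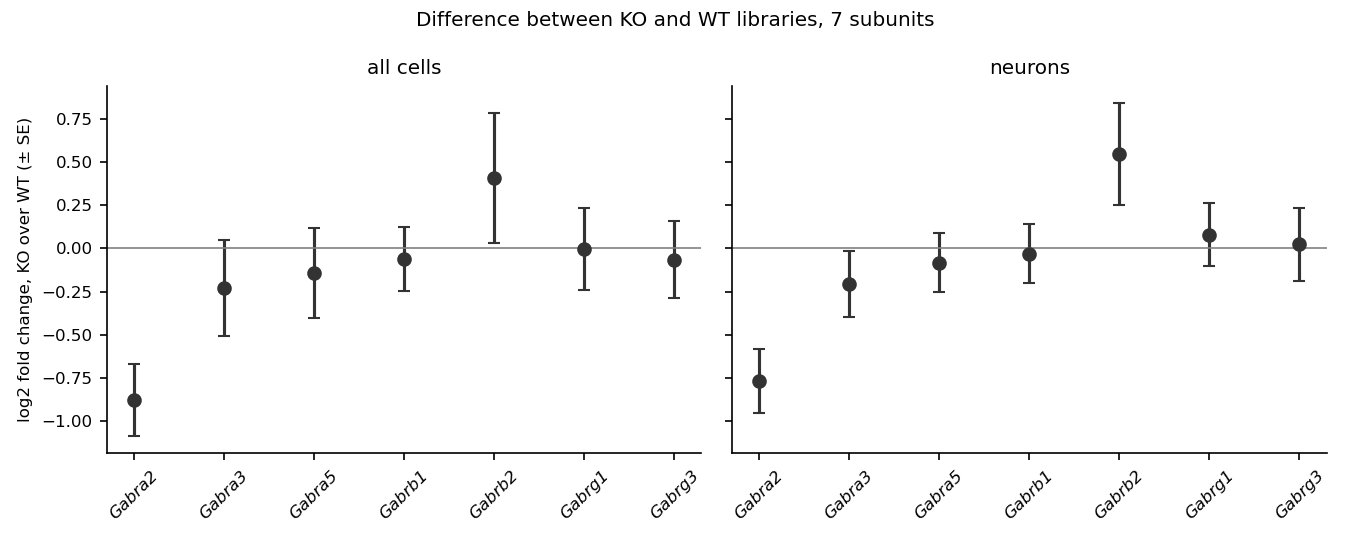
Log2 fold change KO over WT (± SE, edgeR fit of 3 against 3 libraries) of each subunit in all kept cells and in neurons. Gabra2 lies at -0.88 and -0.77, and in neurons the other 6 lie between -0.21 and 0.55.

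Markers of other cells within the neuron sums were compared beside these values. The summed level of the 5 pituitary markers in the table was 1062 to 1619 CPM in WT and 774 to 1056 in KO. Most of it came from Pomc and Chga, which hypothalamic neurons also express, and Pitx1 was at 0. That of 7 microglia markers was 42.9 to 71.7 CPM in WT and 33.1 to 39.7 in KO. Both lists were lower in KO without overlap, while every other marker list compared overlapped between the genotypes. The part of the pituitary and microglia lists in the Gabra2 difference was not tested. Neuron markers overlapped, at 22859 to 25779 CPM in WT and 23065 to 27482 in KO. Leaving out the neurons of clusters with more markers of another class, an alternative chosen after the data were seen, gave a log2 fold change of -0.78 for Gabra2.

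Genes that work with the receptor were not called either. Without overlap, 1 of the other subunits and 1 of the scaffold and trafficking genes were higher in KO neurons. In neurons edgeR called 0 of the 6 other subunits tested, 0 of 16 scaffold and trafficking genes, 0 of 6 genes of GABA synthesis and uptake and 0 of 4 genes for GABA-B receptors and chloride transporters. Their median log2 fold changes were -0.05, 0.06, 0.17 and 0.18. Gphn, the scaffold gephyrin that anchors the receptors at synapses, was at 0.07 ± 0.18. Gabra4, the chromosome 5 neighbour between Gabra2 and Gabrb1, was at 0.02 ± 0.21. Over all cells 0 genes of the 4 lists were called, and 0 of all 13059 genes, of which 268 had an unadjusted p below 0.05 in edgeR while DESeq2 called 4.

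Genes with a pattern like Gabra2 were looked up by the Pearson correlation of log2(CPM + 10), as a description. Across 8 cell classes, with neurons split into the 2 kinds, the 3 most alike of 8377 genes were Fxyd7, Gba2 and Kif5c, with r of 0.99, 0.98 and 0.98. The points share libraries and depth, and neurons against the rest set most of the range. Of the members, Gabra5 was the most alike, at rank 101 with r of 0.93. Across the 12 neuron clusters the 3 most alike of 7759 genes were Tmem179 (r = 0.93), Galnt16 (0.90) and Drp2 (0.89), and Gabrb1 was the closest member (0.65, rank 361).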

How the data were processed

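The values are unnormalized UMI counts, genes by cell barcodes, in the 1 table the authors deposited. The submitters' processing notes name bcl2fastq, STAR 2.5.0c and the builds mm10 and GRCm38; the annotation, the strand counted and the barcode filter are not given in the sources used here. The members and gene lists were chosen with earlier results of these data known.

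Cells with at least 300 genes and at most 20% mitochondrial UMIs were kept (9449 of 13994), and Scrublet in scanpy 1.11.5 at an expected rate of 5% removed 116 doublets (1.23%). Leiden clustering (leidenalg 0.10.2, resolution 1, 2000 variable genes, 30 components, 15 neighbours) left out all GABA-A subunit genes. Clusters were named from marker lists (3 markers at 4-fold), and mixed clusters were split again. The 229 cells of unnamed clusters entered no named class. They were counted among all other cells, where they gave 6 of the 73 Gabra2 UMIs, and so entered the interaction. An alternative of the interaction left them out. Neurons were clustered again. How markers were scored was decided with the clusters in view.

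Counts were summed per library, because cells are not replicates, and fitted with edgeR 4.0.16 in R 4.3.3 (filterByExpr, TMM, quasi-likelihood, Benjamini-Hochberg at 0.05). CPM divides by all UMIs of a group, SE was taken as the size of the log2 fold change divided by the root of its F statistic, and a count of 0 allows up to 3 counts. A class entered the order of levels with at least 20 cells in each library, and neighbours were called apart when they differed by more than the larger SD. All 7 members are named, whatever their values; of each further list at most the 6 highest genes could be named, and some of these are not reported here. On simulated data the neuron fit recovered 90.4% of genes changed 2-fold, the interaction 63.9% and the comparison of neuron kinds 100%. Only genes at or above the median count were changed there, and all sums were drawn from a shared profile. Neurons and other cells thus did not differ in level in the simulation, as Gabra2 did with 1161 and 73 UMIs. The rates were not measured for the members. Alternatives were DESeq2 1.42.0, robust settings, no filter, a replicate block, other cell filters and clusterings, whole clusters, and each library left out.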

Additional observations from a re-analysis of the deposited data

How the results depend on the processing

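The log2 fold change of Gabra2 in KO moved by less than the spread between libraries under all 11 alternatives for all cells and all 17 for neurons. It ran from -1.06 to -0.76 in all cells and from -0.96 to -0.63 in neurons when single libraries were left out. The alternatives for neurons added after seeing the data gave -0.78 (at least 1000 UMIs per cell, and also without clusters holding more markers of another class), -0.56 (under 1000 UMIs) and -0.68 (one mix of clusters). The number of members called in neurons, which were chosen on this contrast, was 0, but 1 with no filter on low counts and 1 without KO3, and 0 to 1 with single libraries left out. The interaction of genotype with neurons against other cells was 0.16 and took the other sign without WT1 (-0.11) and without KO2 (-0.09); it ran from -0.11 to 0.52 over libraries left out, at an adjusted p of 1 in every setting. The number of members called between GABAergic and glutamatergic neurons was 2, but 0 with DESeq2, 1 with no filter on low counts, and 0 to 2 with single libraries left out. Over all genes edgeR called 534 between these neurons and DESeq2 227. The number of members highest in neurons was 4, and 4 to 5 with single libraries left out. In neurons of under 1000 UMIs the KO values of Gabra3, Gabra5, Gabrb1, Gabrg1 and Gabrg3 moved by more than the spread between libraries. The cause of these shifts was not tested. With the replicate number as a block Gabra2 was at -0.87 in all cells and -0.80 in neurons and 0 members were called; same-numbered WT and KO libraries had correlated deviations of -0.04, -0.00 and 0.17 over 9873 genes, above 0.1 in replicate 3 only, so the numbers were not taken to pair them. Sparse counts limit everything outside neurons and all values of Gabrb2.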

Other observations

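Among subunits outside the members, Gabrr2, which encodes a rho subunit known from the retina, was counted in oligodendrocytes. It was chosen after its values were seen. Oligodendrocytes gave 45 of its 55 UMIs, at 25.7 ± 10.5 CPM over the 6 libraries and between 16.1 and 45 CPM in each. Neurons gave 2 of its UMIs, astrocytes 3, and oligodendrocyte precursors and tanycytes 0, which allows up to 5.73 and 4.73 CPM. Gabra4, an alpha subunit, was counted in astrocytes too, at 42.0 ± 23.3 CPM from 49 UMIs, against 49.7 ± 8.14 in neurons, so its levels in the 2 classes lay within their SD. Gabre, the epsilon subunit, was at 19.6 ± 7.0 CPM in GABAergic and 4.66 ± 3.73 in glutamatergic neurons and was higher in GABAergic neurons in 6 of 6 libraries. It did not pass the filter on low counts there and was not tested.

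A small cluster of 37 neurons led by Hdc, the enzyme that makes histamine, had the highest Gabra2 of the neuron clusters, 369 CPM with a 95% Poisson interval of 293 to 460 from 80 UMIs. It was left out of the clusters above for its size and was chosen after its values were seen. Gabra3 gave 2 UMIs and Gabra5 3 in the same cells, 9.23 CPM (1.12 to 33.3) and 13.8 CPM (2.86 to 40.5), against 174 and 140 CPM over all neurons. Gabrb1 was at 194 CPM (140 to 262). Gabra2 in this cluster was at 360, 622 and 409 CPM in WT and at 256, 302 and 295 in KO, from 2 to 11 cells per library.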
